A study of Mus musculus with 8 samples.

Results

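A set of 10 mouse genes of the primitive endoderm and of the basement membrane that it lays down was followed through 8 libraries of embryonic stem cells: the transcription factor genes Gata4, Gata6 and Sox7, the endocytic adaptor gene Dab2, the matrix protein gene Sparc, the laminin chain genes Lama1, Lamb1 and Lamc1, and the collagen IV chain genes Col4a1 and Col4a2. The genes were taken by name, 10 of the 55421 genes counted, and all 10 passed the filter on low counts, which left 14647 genes for testing. All 8 samples were E14 stem cells of 129/Ola background, derived from a blastocyst and lacking the microRNA cluster miR-290-295, so the control cells carried the deletion too. The cells grew on gelatin in 15% serum with LIF at 100 U/ml, received a siPOOL, a pool of many short interfering RNAs that target the same transcript, at 5 nM and were harvested after 36 h. The groups were siTfap4, siWiz and siZic2, each aimed at the transcription factor it is named for, and siNeg, the negative control siPOOL. Each group held 2 libraries, described as biological duplicates. With 2 libraries a group, p-values measure the spread between these samples only.

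The primitive endoderm is the layer of the blastocyst that faces the cavity. Gata6, Sox17, Gata4 and Sox7 come on in it in sequence, FGF signalling through Fgfr1 and Fgfr2 favours it over the Nanog-expressing epiblast, and Dab2 is needed to place its cells at the surface. The layer and its parietal descendants secrete a thick basement membrane in which a laminin trimer (1 alpha, 1 beta and 1 gamma chain, here the products of Lama1, Lamb1 and Lamc1) and a collagen IV network of Col4a1 and Col4a2 chains are linked by nidogens and perlecan, and Sparc binds collagen there. Stem cells grown with serum and LIF hold these genes at low or moderate levels, and a few cells of such cultures can take on primitive endoderm features.

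Sequences at the gene starts are shown because Tfap4 is a helix-loop-helix factor that binds the E-box CAGCTG, and because Col4a1 and Col4a2 are transcribed away from each other. RefSeq start windows (build GRCm38.p6, 250 bases before to 50 after the start) were at hand for 5 of the 10 genes, in 6 windows: Col4a1, Col4a2, Dab2 (2 starts), Lamb1 and Sparc. CAGCTG, which reads the same on both strands, was in 2 of the 6 windows, against 16.3% of all 32851 windows. The match lay 60 bases before the Sparc start (minus strand) and 131 bases before the second Dab2 start (plus strand). In GENCODE M21 both stretches lie in the untranslated first exons of transcript models that begin farther upstream, and within introns of the longest models. In the first 2 lines the capitals mark CAGCTG; in the third they mark the 22 bases that the first exons of Col4a1 and Col4a2 share, read on the plus strand.
Sparc, chr11:55420123-55420152: aggtgattccagCAGCTGttccagccctga
Dab2, chr15:6386605-6386634: tgcgatcgccccCAGCTGgccgggcgcacg
Col4a1 and Col4a2, chr8:11312801-11312830: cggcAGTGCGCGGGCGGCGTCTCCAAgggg
A match of letters describes the window and does not show binding.

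Library totals ran from 8326675 to 13788856 counted reads, with the siTfap4 pair the shallowest. Tfap4 fell in siTfap4 (13.9 against 35.3 CPM in siNeg, where CPM are reads relative to a TMM-scaled library size; adjusted p = 0.00417), Wiz held 18.2 against 48.0 CPM in siWiz (adjusted p = 0.708) and Zic2 1.99 against 3.35 CPM in siZic2 (adjusted p = 1.00). Adjusted p-values come from quasi-likelihood tests in edgeR, adjusted by Benjamini-Hochberg over all 14647 genes, and a gene is said to rise or fall only where that value is under 0.05. Markers of stem cells were present: all 10 were counted in every library, Sox2 with 7243 to 11004 reads and Pou5f1 with 197 to 463. In siTfap4 their summed level was lower (2745 to 2850 against 3561 to 3642 CPM in siNeg), with Nanog and Dppa5a lower and Pou5f1 higher past the test, and the part of this in the results below was not tested. Some markers of other lineages were at or near 0. Afp, Prl3d1 and Postn had 0 reads in all 8 libraries, and Col1a1, Col1a2, Col3a1, Ttr and Cdx2 had at most 5 in any library. Their lists as a whole were not at 0. The 10 fibroblast and mesenchyme markers (4 tested, 0 called against siNeg) summed to 13.2 to 17.4 CPM in siTfap4 and 16.9 to 20.3 in siNeg. The 8 visceral endoderm markers (2 tested, 0 called against siNeg) summed to 2.93 to 3.22 and 3.08 to 3.91. Of these, Cubn had 0 reads in both siTfap4 libraries and 3 to 22 in the others, few in any group. Its edgeR adjusted p in siTfap4 was 0.0745 against siNeg, 0.0192 against siWiz and 0.0205 against siZic2. The 7 mesoderm markers (4 tested, 0 called) summed to 9.30 to 12.9 and 10.9 to 12.8. Of 8 primitive endoderm markers 5 passed the filter, and their 8 levels summed to 6.21 to 8.18 CPM with siTfap4, 6.78 to 9.99 with siWiz, 9.04 to 10.9 with siZic2, and 7.21 to 9.23 with siNeg. Sox17 had 1 to 9 reads a library, Pdgfra 0 to 7 and Hnf4a 0 to 7. The 6 endothelial markers, of which 4 were tested and 0 called against siNeg, summed to 157 to 191 CPM in siTfap4 and 126 to 133 in siNeg, and the 10 trophectoderm markers (6 tested, 0 called) to 162 to 285 and 197 to 268. In bulk RNA a smaller number of cells of a type and less RNA per cell cannot be told apart.

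Among the transcription factors, Sox7 was low in siTfap4 and the GATA factors differed from the control past the test in no siPOOL. Gata4 (ENSMUSG00000021944; GRCm38 chromosome 14, 63198922 to 63271692, minus strand), a zinc finger factor of committed primitive endoderm, had 12 and 15 reads in the siTfap4 libraries, 12 and 10 with siWiz, 32 and 23 with siZic2, and 17 and 20 with the siNeg control. Mean levels were 1.62 ± 0.191 CPM (SD, n = 2) for siTfap4, 1.01 ± 0.0814 for siWiz, 2.35 ± 0.181 for siZic2 and 1.67 ± 0.360 for siNeg. The siZic2 libraries were both above the control pair and the siWiz libraries both below it, while siTfap4 lay within it. Against siNeg the log2 fold changes were 0.49 in siZic2 (95% confidence interval -0.58 to 1.56) and -0.71 in siWiz (-1.85 to 0.44), neither past the test. The groups farthest apart, siWiz and siZic2, differed by log2 -1.20 (SE 0.52), with an unadjusted p of 0.0380 and an adjusted p of 1.00 (edgeR).

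Gata6 (ENSMUSG00000005836; chromosome 18, 11052064 to 11085635, plus strand), the earliest factor of the lineage, had 6 and 9 reads with siTfap4, 26 and 10 with siWiz, 26 and 17 with siZic2, and 14 and 5 with siNeg. Levels were 0.900 ± 0.220, 1.64 ± 0.964, 1.82 ± 0.0189 and 0.822 ± 0.483 CPM in that order. The siZic2 pair stood above both controls, and the other groups overlapped them. The log2 difference from siNeg was 1.11 in siZic2 (SE 0.64, interval -0.27 to 2.49) and 0.97 in siWiz (SE 0.65), with adjusted p = 1.00 for both, and 0.11 in siTfap4 (adjusted p = 0.932). Each interval of Gata4 and Gata6 against siNeg held a 2-fold change in at least 1 direction, so a change of that size was not excluded. An antisense gene model overlaps Gata6, and the strand setting of the counting is not given, so its reads cannot be told apart.

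Sox7 (ENSMUSG00000063060; chromosome 14, 63943673 to 63950732, plus strand), an HMG-box factor that acts late in the same cascade and is also known from endothelium, had 2 and 5 reads with siTfap4, 15 and 10 with siWiz, 25 and 18 with siZic2, and 30 and 15 with siNeg. That gave 0.417 ± 0.239 CPM for siTfap4, 1.15 ± 0.271 for siWiz, 1.83 ± 0.144 for siZic2 and 1.97 ± 0.744 for siNeg. The siTfap4 libraries lay below every other library. Sox7 fell 4.60-fold in siTfap4 against siNeg (log2 -2.20, SE 0.68, interval -3.67 to -0.73, adjusted p = 0.0440) and was lower there than in siZic2 (log2 -2.09, SE 0.69, adjusted p = 0.0425). Against siWiz the log2 difference was -1.43 (adjusted p = 0.190). The siWiz level against siNeg (log2 -0.78) and the siZic2 level (log2 -0.11) did not pass the test. The call against siNeg was lost with DESeq2 (adjusted p = 0.0521), with the siTfap4 and siNeg libraries fitted alone (0.0514) and without 6 of the 8 libraries, each in turn: leaving out siTfap4 replicate 1 gave an adjusted p of 0.278 and leaving out siNeg replicate 1 gave 0.264; it was 0.0515 without siNeg replicate 2, 0.0511 without siWiz replicate 1, and 0.0765 and 0.0771 without the first and the second siZic2 library. The call against siZic2 was lost with DESeq2 (adjusted p = 0.0563), without siTfap4 replicate 1 (0.246), without either siZic2 library (0.141 for the first, 0.157 for the second) and without either siNeg library (0.0553 and 0.0512).

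Dab2 (ENSMUSG00000022150; chromosome 15, 6299788 to 6440712, plus strand), a clathrin adaptor for lipoprotein receptors and a known target of the GATA factors, had 35 and 8 reads with siTfap4, 40 and 21 with siWiz, 40 and 10 with siZic2, and 27 and 14 with siNeg. The mean level was 2.64 ± 2.41 CPM for siTfap4, 2.79 ± 1.10 for siWiz, 1.92 ± 1.20 for siZic2 and 1.79 ± 0.636 for siNeg. The 2 siTfap4 libraries alone, at 4.34 and 0.938 CPM, spanned all other libraries. Log2 differences from siNeg were 0.54, 0.63 and 0.13 in siTfap4, siWiz and siZic2, with no call and intervals that reached from -1.32 to 2.06 in all. The siTfap4 value changed sign, to -0.95, without siTfap4 replicate 1, and the siZic2 value, to -0.71, without siZic2 replicate 1. Gm16311 and Gm18888 overlap Dab2 on the other strand.

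**Figure D1:**
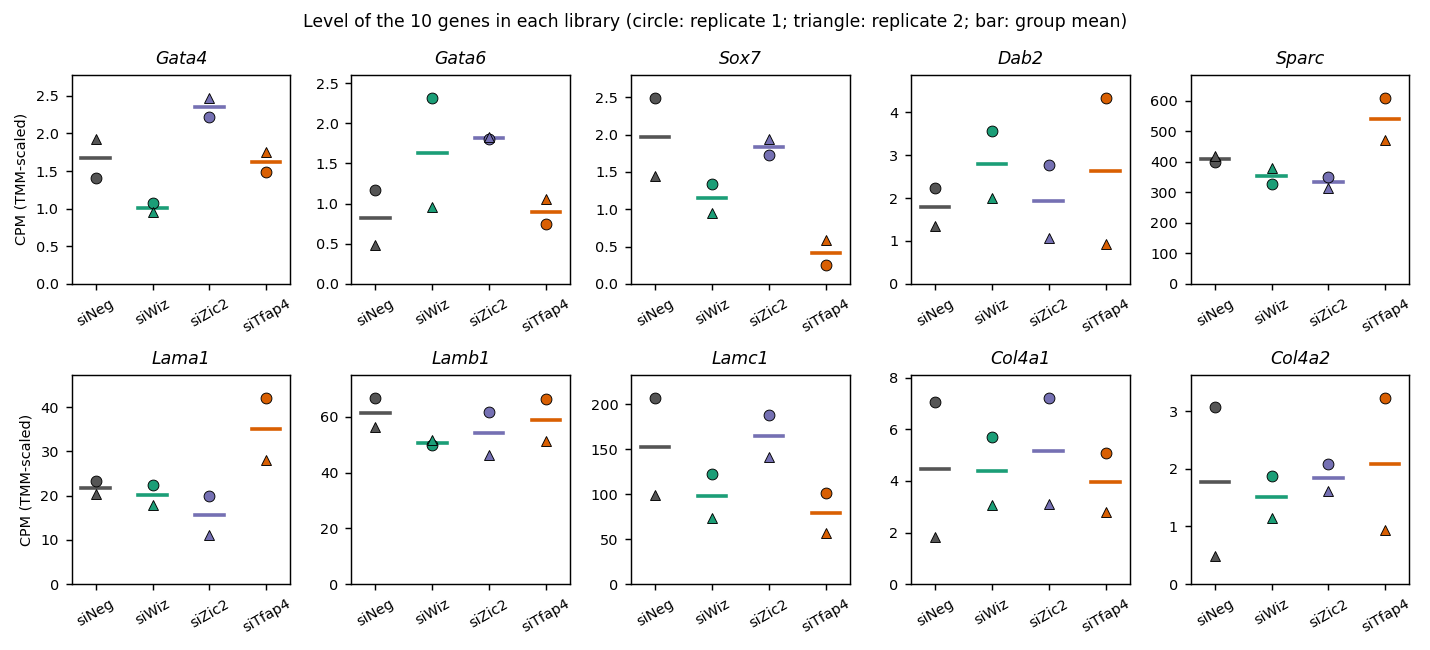
Level of each of the 10 genes (y axis, CPM after TMM scaling, from 0) by siPOOL group (x axis); circles are replicate 1, triangles replicate 2 and bars the mean of 2 libraries. The siTfap4 libraries of Sox7 lie at 0.248 and 0.586 CPM, below all others, those of Lama1 and Sparc lie above all others, and the Col4a1, Col4a2 and Dab2 pairs are wide in most groups.

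Sparc and Lama1 were highest in siTfap4. Sparc (ENSMUSG00000018593; chromosome 11, 55394500 to 55423183, minus strand), which encodes the collagen-binding protein osteonectin, held 609 and 471 CPM with siTfap4, 327 and 381 with siWiz, 351 and 315 with siZic2, and 398 and 418 with siNeg, from 2932 to 5058 reads a library. Both siTfap4 libraries exceeded every other library, and both libraries of siWiz and of siZic2 were below both controls. Sparc was higher in siTfap4 than in siZic2 (540 ± 97.5 against 333 ± 24.9 CPM; log2 0.70, SE 0.23, adjusted p = 0.0440). Against siNeg the log2 difference was 0.41 (SE 0.23, interval -0.09 to 0.90, adjusted p = 0.242) and against siWiz 0.61 (adjusted p = 0.0893), neither a call. In siWiz and siZic2 it was -0.20 and -0.29 against siNeg. The order of means was siTfap4, siNeg, siWiz, siZic2, and neighbours in it did not differ past the test. The siZic2 call was lost without siTfap4 replicate 1 (adjusted p = 0.246), siWiz replicate 1 or 2 (0.0736 and 0.0713) and siZic2 replicate 1 or 2 (0.178 and 0.254), with library totals alone (0.0682), with no filter beyond 1 count (0.0623) and with the siTfap4 and siZic2 libraries fitted alone (0.0674). The difference from siWiz passed without siTfap4 replicate 2 (log2 0.77, adjusted p = 0.0394).

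Lama1 (ENSMUSG00000032796; chromosome 17, 67697259 to 67822647, plus strand) encodes the alpha 1 chain, the chain of the first embryonic laminins that binds cell surface receptors. It held 42.0 and 28.0 CPM with siTfap4, 22.4 and 17.9 with siWiz, 19.9 and 11.2 with siZic2, and 23.3 and 20.4 with siNeg, from 104 to 339 reads. The siTfap4 pair was above all other libraries and the siZic2 pair below both controls. Lama1 was higher in siTfap4 than in siZic2 by log2 1.16 (SE 0.31, adjusted p = 0.0181), or 35.0 ± 9.91 against 15.5 ± 6.15 CPM. Against siNeg it stood at log2 0.68 (SE 0.31, unadjusted p = 0.0442, adjusted p = 0.144), 1.60-fold with an interval of 1.01 to 2.53, and against siWiz at log2 0.80 (adjusted p = 0.0947). In siZic2 it was at log2 -0.48 and in siWiz at -0.12 against siNeg, without a call. The difference between siTfap4 and siZic2 had an adjusted p of 0.162 (log2 0.83) without siTfap4 replicate 1 and of 0.190 (log2 0.81) without siZic2 replicate 2. That from siWiz passed without siTfap4 replicate 2 (log2 1.05, adjusted p = 0.0379).

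The beta and gamma chain genes did not share the order of Lama1. Lamb1 (ENSMUSG00000002900; chromosome 12, 31265234 to 31329644, plus strand), which encodes the beta 1 chain, held 66.6 and 51.5 CPM with siTfap4, 49.8 and 51.7 with siWiz, 61.9 and 46.4 with siZic2, and 66.8 and 56.2 with siNeg. The groups overlapped, apart from siWiz, which lay below both controls. Log2 differences from siNeg were -0.06, -0.28 and -0.18, and their 3 intervals together reached from -0.80 to 0.46, so a 2-fold change in Lamb1 was outside all of them. Lamc1 (ENSMUSG00000026478; chromosome 1, 153218922 to 153332786, minus strand), the gamma 1 chain found in most laminins and the nidogen-binding one, held 101 and 57.4 CPM with siTfap4, 123 and 73.2 with siWiz, 189 and 142 with siZic2, and 207 and 99.1 with siNeg. Its siTfap4 and siNeg libraries overlapped: the higher siTfap4 library was just above the lower control. The log2 difference was -0.95 in siTfap4 (SE 0.37, interval -1.74 to -0.16, unadjusted p = 0.0225, adjusted p = 0.0941), -0.64 in siWiz and 0.11 in siZic2 (-0.33 without siNeg replicate 2). Between siTfap4 and siZic2, whose libraries did not overlap, it was -1.06 (SE 0.37, adjusted p = 0.0530). Lamc1 in siTfap4 passed against siNeg without siNeg replicate 2 (log2 -1.40, adjusted p = 0.0268) and with no filter beyond 1 count (0.00611). Against siZic2 it passed with that filter (adjusted p = 0.000769), with the siTfap4 and siZic2 libraries fitted alone (0.0286), with DESeq2 (0.0232) and without any 1 of the siWiz or siNeg libraries (adjusted p from 0.0264 to 0.0408). Gm38009 overlaps Lamc1 on the same strand and Gm8818 on the other, so reads could be shared.

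Because the trimer takes 1 chain of each kind, the reads of their genes were also set against each other within each library, which no scaling of whole libraries can alter. The ratios are not corrected for base content, which differs between these genes and is given with its correction further on. There were 2.41 and 2.05 Lamc1 reads per Lama1 read with siTfap4, 5.48 and 4.10 with siWiz, 9.48 and 12.7 with siZic2, and 8.89 and 4.86 with siNeg. The siTfap4 ratios were the lowest and the siZic2 ratios the highest of the 8, with no overlap between siTfap4 and any other group. Lamb1 reads per Lama1 read were 1.58 and 1.84 in siTfap4 against 2.87 and 2.76 in siNeg, 2.23 and 2.89 in siWiz, and 3.11 and 4.14 in siZic2. Lamc1 reads per Lamb1 read were 1.52 and 1.12 in siTfap4, against 3.10 and 1.76 in siNeg, 3.05 and 3.06 in siZic2, and 2.46 and 1.42 in siWiz, so for this ratio siTfap4 overlapped siWiz. These ratios compare the change of a gene between groups. They are given as values, without a test: with 2 libraries against 2, exact permutation cannot reach a p under 0.05. They are not a measure of the protein chains.

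**Figure D2:**
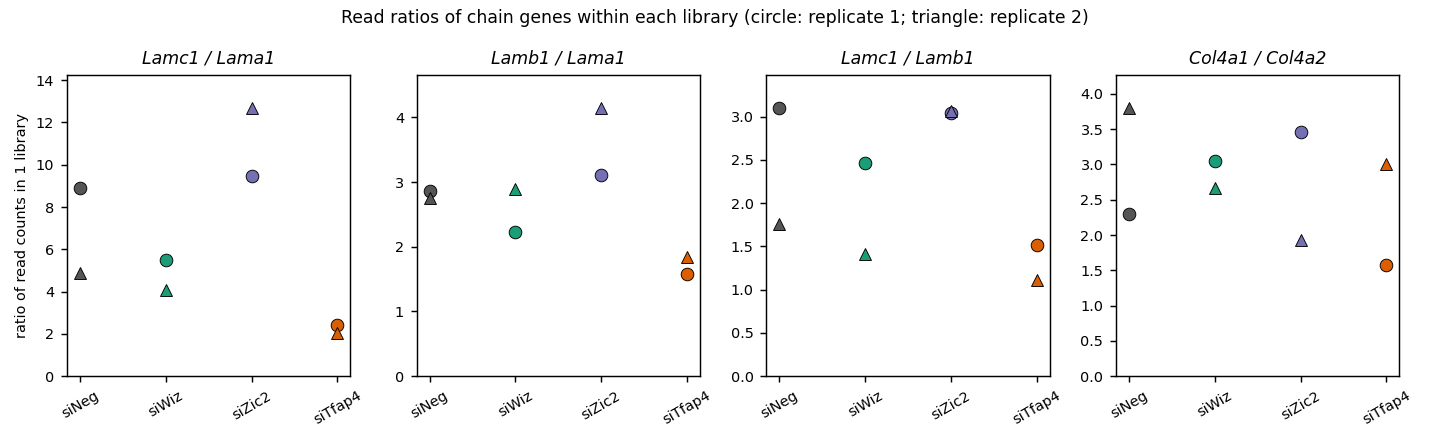
Ratio of read counts of 2 genes in the same library (y axis, from 0) by siPOOL group (x axis); each point is a library, circles replicate 1 and triangles replicate 2. Lamc1 reads per Lama1 read are 2.05 and 2.41 in siTfap4 and 4.10 to 12.7 elsewhere, while the Col4a1 to Col4a2 ratio overlaps in all groups.

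The collagen IV genes did not separate the groups. Col4a1 (ENSMUSG00000031502; chromosome 8, 11198423 to 11312826, minus strand) and Col4a2 (ENSMUSG00000031503; chromosome 8, 11312805 to 11449287, plus strand) encode the chains of the main collagen IV heterotrimer and start at opposite ends of the shared stretch shown above, on opposite strands. Col4a1 had 41 and 24 reads with siTfap4, 64 and 32 with siWiz, 104 and 29 with siZic2, and 85 and 19 with siNeg, a level of 3.95 ± 1.60, 4.38 ± 1.87, 5.16 ± 2.89 and 4.45 ± 3.71 CPM. Col4a2 had 26 and 8 reads with siTfap4, 21 and 12 with siWiz, 30 and 15 with siZic2, and 37 and 5 with siNeg, a level of 2.08 ± 1.62, 1.51 ± 0.514, 1.85 ± 0.329 and 1.78 ± 1.84 CPM. The control libraries spanned every other Col4a1 library but the first of siZic2, and every other Col4a2 library but the first of siTfap4. The 6 log2 differences from siNeg were between -0.25 and 0.23, and none passed the test. Their intervals were wide: for Col4a2 in siTfap4 it ran from -1.42 to 1.81. Without siNeg replicate 1 Col4a1 in siTfap4 and siWiz turned to log2 1.12 and 1.27, and Col4a2 in siWiz to 1.64. Without siNeg replicate 2 Col4a1 and Col4a2 in siZic2 turned to -0.43 and -0.72, and Col4a2 in siTfap4 to -0.58. Col4a2 in siTfap4 also turned, to -0.95, without siTfap4 replicate 1, and Col4a1 in siZic2, to -0.49, without siZic2 replicate 1. The 2 genes moved together across libraries, with Pearson r = 0.886 for log2 CPM over 8 libraries (a description, since the libraries share depth and replicate number), and the Col4a1 reads per Col4a2 read stayed between 1.58 and 3.80.

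Counted over the comparisons, calls among the 10 genes were no more frequent than among all genes in siTfap4 against siNeg: 1 fell (Sox7) and 0 rose, beside 15.9% of all tested genes called there, 11.7% lower and 4.24% higher. At an unadjusted p under 0.05 there were 3 of the 10, beside 32.4%. Their median log2 difference was 0.04, against 0.01 over all genes. In siWiz against siNeg edgeR called 0 of the 10 beside 0% of all genes, and 0 of the 10 beside 1.82% had an unadjusted p under 0.05. In siZic2 against siNeg it called 0 of the 10 beside 0%, and 0 beside 0.587% had an unadjusted p under 0.05. With DESeq2 the 10 genes gave 0 calls in both.

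In siTfap4 against siZic2 edgeR called 3 of 10, beside 23.1% of all genes: Sparc and Lama1 were higher (2 of 10, beside 8.41%) and Sox7 was lower (1 of 10, beside 14.7%), with 4 of 10 beside 37.6% at an unadjusted p under 0.05. In siTfap4 against siWiz it called 0 of 10 (beside 15.1%, 4.66% higher and 10.4% lower), with 2 of 10 beside 31.6% at an unadjusted p under 0.05 and 0 by DESeq2. Between siWiz and siZic2 it called 0 of 10 beside 0%, with 1 of 10 beside 2.62% at an unadjusted p under 0.05 and 0 by DESeq2. The libraries of siTfap4 did not overlap those of siNeg in 3 of the 10 genes (Sox7, Sparc and Lama1), beside 59.1% of all genes. Against siNeg the libraries were apart in 4 genes in siWiz (Gata4, Sox7, Sparc and Lamb1, beside 25.1%) and in 4 in siZic2 (Gata4, Gata6, Sparc and Lama1, beside 23.8%). Between siTfap4 and siWiz they were apart in 4 of 10 (beside 61.7%), between siTfap4 and siZic2 in 6 (beside 66.8%) and between siWiz and siZic2 in 3 (beside 35.0%). The 3 comparisons with siNeg share its libraries, and each siPOOL enters several comparisons.

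**Figure D3:**
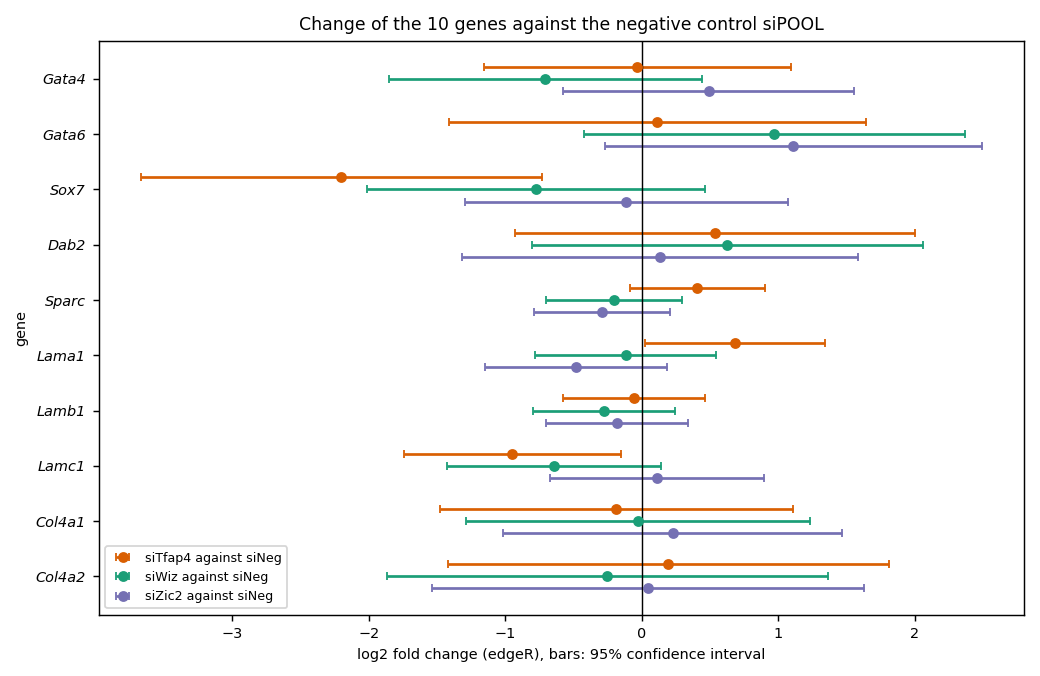
Log2 fold change against siNeg (x axis, edgeR) of the 10 genes (y axis) for the 3 siPOOLs; points are estimates from 2 libraries a group and bars 95% confidence intervals. The Sox7 interval in siTfap4 (-3.67 to -0.73), the Lamc1 interval (-1.74 to -0.16) and the Lama1 interval (0.02 to 1.34) leave out 0, and only Sox7 passed after adjustment over all genes.

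Log2 differences followed the base composition of transcript ends, most strongly but not only in comparisons with siTfap4. Spearman correlations with the G and C content of the last 300 transcript bases were 0.36 for siTfap4 against siNeg, 0.32 against siWiz and 0.40 against siZic2. Without siTfap4 they were 0.12 for siWiz against siNeg, -0.23 for siZic2 against siNeg and 0.29 for siWiz against siZic2. Over 12483 protein-coding genes the median log2 difference of siTfap4 from siNeg was -0.26 in the third of genes with the fewest G and C in the last 300 transcript bases (up to 38.3%) and 0.36 in the third with the most (46.7% and more). Lama1 had 51.0% there, Sparc 42.3%, Lamc1 40.0% and Sox7 29.3%. With a correction for this content and for transcript length, Sox7 was at log2 -1.74 (adjusted p = 0.0650), Lama1 at 0.25 (adjusted p = 0.476) and Lamc1 at -0.74 (adjusted p = 0.0989) in siTfap4 against siNeg. Lama1 and Lamc1 were thus closer to each other than without it (0.68 and -0.95). Sparc rose there with the correction (log2 0.75, adjusted p = 0.0294) and was also higher than in siWiz (log2 0.96, adjusted p = 0.0113) and siZic2 (log2 1.06, adjusted p = 0.00490). Sparc was then the 1 gene of the 10 called in each of these comparisons, since Lama1 against siZic2 came to log2 0.68 (adjusted p = 0.0518) and Sox7 to -1.54 (adjusted p = 0.0870).

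Levels also differed by replicate number, most widely in the collagen IV genes and Dab2. In all 4 groups the library numbered 1 held more Dab2, Lama1, Lamc1, Col4a1 and Col4a2 than the library numbered 2, so 5 of the 10 genes did so, beside 12.5% of all tested genes. For Col4a1 the log2 ratio of the first to the second library was 0.85 with siTfap4, 0.90 with siWiz, 1.21 with siZic2, and 1.95 with siNeg. For Lamc1 it was 0.82, 0.75, 0.41 and 1.06, and for Col4a2 1.78, 0.71, 0.37 and 2.68. Gata4 was higher in the first library in 1 group, Gata6, Sox7 and Sparc in 2, and Lamb1 in 3. In a fit with the replicate number as a term, 0 of the 10 genes passed for that term, beside 0.0273% of all genes. Within a number, Lamc1 was lower in siTfap4 than in siNeg in both (log2 -1.03 and -0.79), Lama1 higher (0.85 and 0.46), Sparc higher (0.61 and 0.17) and Sox7 lower (-3.33 and -1.30). Col4a1 differed in sign (-0.48 and 0.62), as did Gata6 (-0.65 and 1.13) and Dab2 (0.95 and -0.52).

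**Figure D4:**
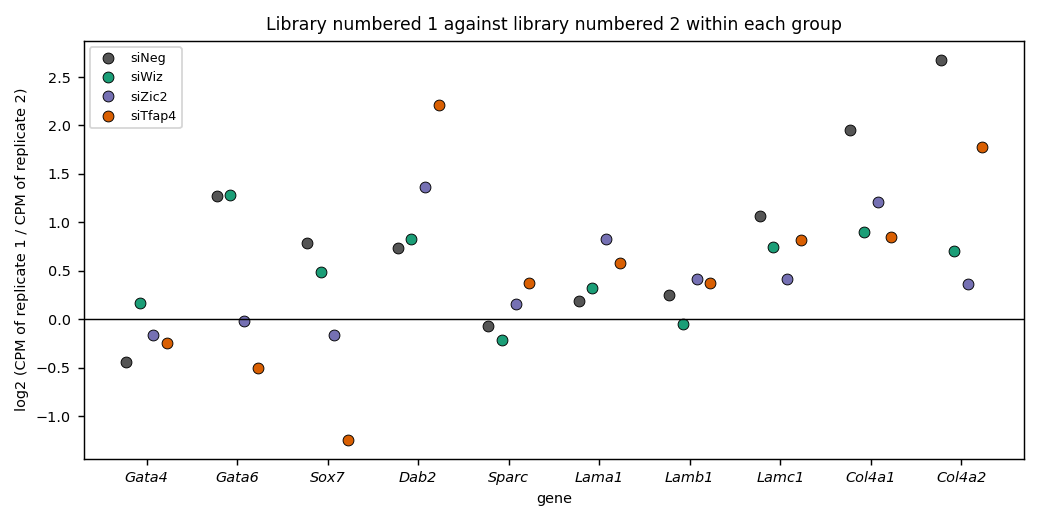
Log2 ratio of the CPM of replicate 1 to replicate 2 within each group (y axis) for the 10 genes (x axis); each point is a group of 2 libraries. Dab2, Lama1, Lamc1, Col4a1 and Col4a2 are above 0 in all 4 groups, with Col4a2 reaching 2.68 in siNeg, while Gata4, Gata6, Sox7 and Sparc lie on both sides.

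Several other components of the basement membrane fell in siTfap4. Of 27 listed genes 16 were tested and 6 fell against siNeg, with a median log2 of -0.68, beside 11.7% lower and a median of 0.01 over all genes. Nid2, which encodes a nidogen that joins laminin gamma 1 to collagen IV, fell to 40.4 ± 7.86 CPM against 142 ± 67.6 in siNeg (log2 -1.81, SE 0.34, adjusted p = 0.00411). Lama5, the alpha chain that replaces alpha 1 in most basement membranes of later embryos, fell to 22.7 ± 1.41 CPM against 68.7 ± 18.5 (log2 -1.60, SE 0.32, adjusted p = 0.00654). The perlecan gene Hspg2 (log2 -1.13, adjusted p = 0.0299) and Tinagl1, a matricellular protein gene (-1.62, adjusted p = 0.0359), also fell, as did Lama3 (-1.16, adjusted p = 0.0408) and Nid1 (-1.20, adjusted p = 0.0493). With the correction for base content and length the calls of Lama3 (adjusted p = 0.0822) and Nid1 (0.0749) were lost, and that of Lama3 also with the siTfap4 and siNeg libraries fitted alone (0.0877). Nid1 also lost its call with RLE factors (0.0503), library totals alone (0.0523) and the filter at a mean of 5 CPM (0.0530). Fibronectin Fn1 (log2 -0.56), agrin Agrn (0.15) and Col18a1 (-0.05) did not pass the test. Nid2 was still called whichever 1 library was left out. The number that fell was 2 without siTfap4 replicate 1, 1 without siNeg replicate 1, and 3 without siNeg replicate 2 or either siZic2 library. Leaving out siNeg replicate 1, Nid1 stood at log2 -0.27 and Lama5 had an adjusted p of 0.0580. Of the other collagen IV genes, Col4a3 had 0 reads in all libraries and Col4a4, Col4a5 and Col4a6 at most 4 in any.

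**Figure D5:**
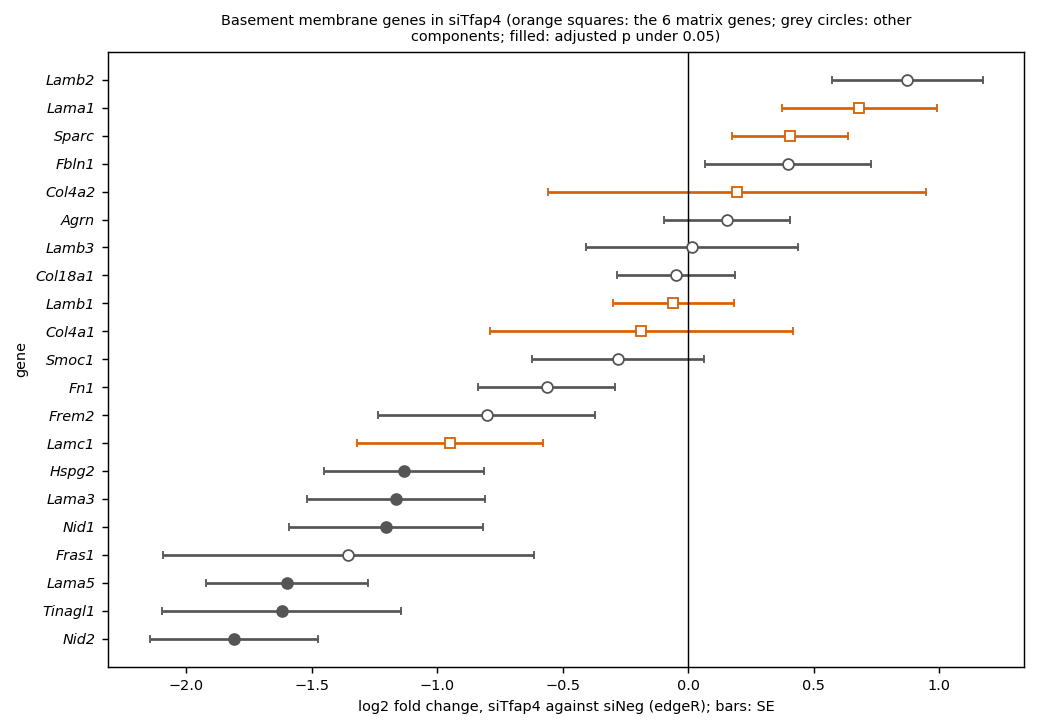
Log2 fold change of siTfap4 against siNeg (x axis, edgeR) for tested basement membrane genes described here or on the list (y axis), ordered by value; bars are SE, squares the 6 matrix genes followed here, circles other components, and filled symbols an adjusted p under 0.05. Nid2 (-1.81) is the lowest and Lamb2 (0.87, not filled) the highest of those plotted, and the 6 squares, none filled, lie between -0.95 and 0.68.

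Among genes that act upstream in the lineage, both FGF receptor genes fell in siTfap4. Of 15 listed primitive endoderm factors and receptors 9 were tested, and in siTfap4 3 fell and 0 rose against siNeg (median log2 -0.86): the FGF receptor genes Fgfr1 (42.9 ± 7.27 to 17.7 ± 0.189 CPM, log2 -1.28, adjusted p = 0.00795) and Fgfr2 (23.4 ± 2.21 to 7.79 ± 5.40 CPM, log2 -1.58, adjusted p = 0.0153), and Snai1, a zinc finger repressor of E-cadherin (log2 -2.34, adjusted p = 0.0121). The ligand gene Fgf4 (log2 0.28) and Foxa2 (log2 0.68) did not pass. All 3 calls were lost without siTfap4 replicate 1 (adjusted p from 0.0515 to 0.113) and without siNeg replicate 1 (0.0664 to 0.0778). Over all tested genes 11.7% fell. Of 20 products of visceral and parietal endoderm 12 were tested and 2 fell, a share near that of all genes: the endocytic receptor gene Lrp2 (log2 -1.42, adjusted p = 0.0390) and the protease gene Ctsl (-1.21, adjusted p = 0.0328), and both calls were lost without siTfap4 replicate 1 (adjusted p = 0.0845 and 0.216) and without siNeg replicate 1 (0.266 and 0.164), that of Lrp2 also without siTfap4 replicate 2 (0.133) and that of Ctsl with the correction for base content and length (0.0531).

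Genes that fold, export and bind these matrix proteins were called in siTfap4 at shares near those of all genes, of which 11.7% fell and 4.24% rose. Of 18 tested genes of collagen and laminin folding and secretion 3 fell and 0 rose (median log2 -0.29). They were Crtap, part of the complex that hydroxylates collagen prolines (2.36 ± 0.519 CPM against 16.9 ± 2.23 in siNeg, log2 -2.83, SE 0.33, adjusted p = 0.000415), and the COPII coat genes Sec13 (log2 -2.45, adjusted p = 0.00791) and Sec23a (-1.06, adjusted p = 0.0238). Of 21 tested receptors and adaptors 3 fell and 1 rose (median log2 -0.01). The integrin adhesion adaptor genes Lims1 (log2 -1.78, adjusted p = 0.00522) and Fermt2 (-1.73, adjusted p = 0.00553) and the focal adhesion kinase gene Ptk2 (-1.08, adjusted p = 0.0122) fell, and Bcam, a receptor for laminin alpha 5, rose (log2 1.08, adjusted p = 0.0212). The laminin-binding integrin genes Itga6 (log2 -0.01) and Itgb1 (-0.14) and the dystroglycan gene Dag1 (-0.67, adjusted p = 0.101) did not pass. Crtap, Sec13, Lims1 and Fermt2 were still called whichever 1 library was left out. Sec23a, Ptk2 and Bcam lost theirs without siTfap4 replicate 1 (adjusted p = 0.187, 0.104 and 0.157) and without siNeg replicate 1 (0.0834, 0.0902 and 0.0665), and Sec23a and Bcam also without siNeg replicate 2 (0.0588 and 0.0888). With the correction for base content and length Bcam was at log2 0.50 (adjusted p = 0.121).

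Among 11 tested genes of matrix proteases and their inhibitors, 2 inhibitor genes rose: Serpine2 (log2 1.73, adjusted p = 0.00276) and the metalloprotease inhibitor gene Timp2 (1.41, adjusted p = 0.0358). The protease gene Mmp11 fell (-1.25, adjusted p = 0.0121). Over all tested genes 4.24% rose and 11.7% fell. Of 10 tested relatives of Sparc and partners of Dab2, 1 fell, about the share of all genes: the testican gene Spock2 (log2 -1.22, adjusted p = 0.0391). Timp2 lost its call without any 1 of the siTfap4, siZic2 or siNeg libraries (adjusted p from 0.0544 to 0.165), Mmp11 without siTfap4 replicate 1 (0.113) or siNeg replicate 1 (0.0527), and Spock2 without siTfap4 replicate 1, siNeg replicate 1 or either siZic2 library (0.0672 to 0.218).

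In siWiz and in siZic2 edgeR called 0 genes of these 7 lists against siNeg. The smallest p-values in siWiz were for Timp2 (log2 1.03, unadjusted p = 0.0249), Spock1 (1.49, unadjusted p = 0.0328), Fn1 (-0.60, unadjusted p = 0.0449) and the integrin gene Itga3 (-0.67, unadjusted p = 0.0482), all with an adjusted p of 1.00 (edgeR). In siZic2 they were for Fras1 (-1.46, unadjusted p = 0.0587) and the gelatinase gene Mmp2 (0.87, unadjusted p = 0.0740), also with an adjusted p of 1.00 (edgeR). Each list had a median log2 between -0.36 and 0.16 in siWiz and between -0.11 and 0.23 in siZic2, beside 0.00 over all genes in both.

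The mean standardised level of the 10 genes was 0.48, 0.09, 0.57 and 0.60 in the first libraries of siTfap4, siWiz, siZic2 and siNeg, and -0.45, -0.56, -0.23 and -0.50 in the second. Of 8486 other genes with a mean of at least 10 CPM, the 5 most like it over the 8 libraries were Slk (Pearson r = 0.984), Kmt2d (0.981), Grhl2 (0.980), Dnajc13 (0.976) and Itga6 (0.973). These values are a description of 8 libraries that share depth and replicate number.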

How the data were processed

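Per the labels' protocols, QuantSeq 3' FWD libraries were made from 500 ng of Trizol-extracted RNA. The authors deposited raw read counts per Ensembl gene, without normalization. Trim Galore and GRCm38 are named in the submitters' processing notes. The aligner, the counter, the strand setting and any use of UMIs were not given in the sources used here. All 8 columns were matched to samples by title. Symbols and positions came from GENCODE M21 (55154 of 55421 identifiers matched).

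Counts were filtered with filterByExpr, scaled by TMM and fitted with edgeR 4.0.16 in R 4.3.3 as 1 mean per group over 8 libraries (4 residual and 9.70 prior degrees of freedom). SEs were derived from the F statistics. The script was tested on simulated data. Log2 CPM for correlations and standardised levels used a prior count of 2. The last 300 bases of each of the 10 transcripts had no stretch of 50 bases at 90% identity in another gene.

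The alternatives were RLE factors, library totals alone, a minimum of 1 count or a 5 CPM mean as filter, the compared groups alone, a replicate block, each library left out, DESeq2 1.42.0 and thinning to the smallest library. A correction for base content and length, a fit without both siTfap4 libraries, and the alternatives for the gene lists were added after seeing the data. With 1 library left out, its lone partner is assumed to have the spread of the remaining groups. The 10 genes and all lists were chosen with earlier results of these data known. All 10 genes were named, with up to 4 called genes per list and comparison with siNeg, or up to 2 with the smallest p where none was called. Lama3 and Nid1, values given for genes without a call in siTfap4, and marker genes at or near 0 fall outside that rule and were chosen after their values were seen. Some listed genes are not reported here, though list counts and medians include them.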

Additional observations from a re-analysis of the deposited data

Results flagged for a closer look

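Changes against siNeg differed between siTfap4 and siZic2 for 3 of the 10 genes, by edgeR's test of the difference itself, which is the contrast of the 2 siPOOLs. Sox7 differed by log2 -2.09 (adjusted p = 0.0425), Sparc by 0.70 (adjusted p = 0.0440) and Lama1 by 1.16 (adjusted p = 0.0181). In each case both siTfap4 libraries lay beyond both siZic2 libraries. Of all tested genes 23.1% were called in this contrast. Groups of 2 libraries are too small to single out a library as standing apart.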

How the results depend on the processing

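Over the alternatives, 951 of 1012 values of the 10 genes kept their side of the threshold. These kept their direction too or, without a call, changed sign by less than the SE of the reported value. Of the rest, 27 lost a call, 16 gained one, 18 changed sign by at least that SE without a call, and 0 called values reversed. The number of the 10 genes called in siTfap4 against siNeg, 1 as reported, was 2 with no filter beyond 1 count and 2 with the replicate block, and 0 with a mean of at least 5 CPM (where Sox7 was no longer tested), with the 2 groups alone and with DESeq2; without 1 library it ranged from 0 to 1. In siTfap4 against siWiz, 0 as reported, it was 1 with the replicate block and 1 with the correction for base content and length, and 0 to 2 without 1 library. In siTfap4 against siZic2, 3 as reported, it was 1 with that correction and 0 to 3 without 1 library. In the other 3 comparisons it was 0 under every alternative run. The cause of these shifts was not tested except where named.

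Replicate numbers were shared between groups, but the deviations of same-numbered libraries correlated from -0.04 (siTfap4 and siWiz) to 0.33 (siWiz and siNeg), so the numbers did not pair the samples by the rule used. With the replicate block 3243 genes were called in siTfap4 against siNeg (2330 without, 2328 in both). Lamc1 was called with the block against siNeg (log2 -0.92, adjusted p = 0.0109) and siZic2 (-1.11, adjusted p = 0.00318), and Lama1 against siWiz (0.78, adjusted p = 0.0351). Depth limits Gata4, Gata6, Sox7, Col4a2 and Dab2, with at most 40 reads in any library. Over all tested genes, siTfap4 against siNeg gave 504 calls when siTfap4 replicate 1 was left out and 757 when siNeg replicate 1 was. Without siTfap4 replicate 2 the folding list and the receptor list each had 5 lower calls in place of 3, and with the correction for base content and length 3 genes in place of 0 rose among the Sparc relatives and Dab2 partners.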

Other observations

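Values that belong to no comparison of siPOOLs concern the replicate number itself. In the edgeR fit with the replicate number as a term, 4 of 14647 genes (0.0273%) passed for the second against the first libraries, and none of the 10 genes was among them. Their smallest values were for Lamc1 (log2 -0.76, SE 0.15, unadjusted p = 0.000212, adjusted p = 0.0991), Col4a1 (-1.22, SE 0.27, adjusted p = 0.126) and Dab2 (-1.24, SE 0.35, adjusted p = 0.174). Across libraries Sparc and Lama1 had r = 0.864 and Sparc and Sox7 r = -0.822 for log2 CPM over 8 libraries, which share the siTfap4 pair at their extremes. Col4a1 and Lamc1 had r = 0.689.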
